A study of Triticum aestivum with 3 samples.

Results

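The miR393 family was taken from a table of small RNA sequences read in wheat (Triticum aestivum) seedling leaves. Members were chosen by name, as the rows whose family number is that of miR393, counted once per distinct sequence. Measured values entered the choice only in that the table lists expressed sequences. This gave 20 sequences (23 rows) of 1896 distinct sequences (1969 rows). Leaves were taken after 2 days from 3 groups, control, dithiothreitol (DTT), and DTT plus TUDCA (tauroursodeoxycholic acid). DTT reduces disulfide bonds and so hinders protein folding in the endoplasmic reticulum, and TUDCA, a bile acid, acts as a chemical chaperone. Each group is 1 sample read as 2 pools of RNA, mixed from its biological replicates, so the pools were treated as repeat runs and no p-value between groups was computed. Genotype, seedling age in days and doses were not stated in the labels.

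miR393 is an old plant miRNA family that pairs with the mRNAs of TIR1 and AFB proteins, the F-box receptors that bind auxin and mark Aux/IAA repressors for destruction. It is known from Arabidopsis and rice as a brake on auxin perception in leaf and root growth, and in Arabidopsis it is induced by bacterial flagellin. The 5p strand is the one that guides cleavage of the receptor mRNAs. The 3p strand is its partner in the precursor, and in Arabidopsis it has been reported to act on a membrane-fusion gene of defence secretion.

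The sequences on which the results turn are printed here 5′ to 3′ with the seed (bases 2 to 8) in capitals, as DNA letters from the deposited table, to show that the 5p strand is shared between names while the 3p strand is not. The name of an entry holds the species of the registered miRNA (ata Aegilops tauschii, osa rice, aly Arabidopsis lyrata, aof asparagus) and the change at each end, L for the 5′ end and R for the 3′ end. The first pair comes from 1 wheat precursor, the next 4 are rice-named 5p forms that share their 3′ end, and the last pair are 3p strands with Arabidopsis names.
ata-miR393-5p_L-1R+1: tCCAAAGGgatcgcattgatc
ata-miR393-3p_L+1R-1_1ss15TC: tCAGTGCAatccctctggaat
osa-miR393a_L+1R+1: cTCCAAAGggatcgcattgatcc
osa-miR393a_R+1_1: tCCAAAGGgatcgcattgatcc
osa-miR393a_L-1R+1: cCAAAGGGatcgcattgatcc
osa-miR393a_L-2R+1: cAAAGGGAtcgcattgatcc
aly-miR393b-3p: aTCATGCGatctctttggatt
aly-miR393a-3p: aTCATGCTatctctttggatt

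By name, 9 of the 20 sequences carry grass prefixes (2 ata and 7 osa; no tae, bdi, hvu or zma name occurred) and 11 carry others (10 aly and 1 aof). By strand, 11 belong to the 5p arm and 9 to the 3p arm, of which 8 carry aly names and 1 an ata name. Length runs from 18 to 23 nt, with 8 members of 21 nt and 6 of 22 nt. The seed CCAAAGG of the 5p strand is shared by 8 members and the seed TCATGCG of the Arabidopsis-type 3p strand by 4, and each of the other 8 seeds belongs to 1 member.

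A rice-named entry can have the letters of an Arabidopsis form. The substitutions in the name aly-miR393a-5p_2ss21CT22CT, counted from 1 at the 5′ end, are C21T and C22T, and undoing them gives a registered Arabidopsis lyrata form of 22 nt. That form is letter for letter osa-miR393a_R+1_1, the sequence that the table names as rice miR393a with 1 base added. Of the 7 osa entries, 6 end in CC like this form, whereas the ata 5p entry of 21 nt ends in a single C after the shared letters. A rice prefix in this family thus does not by itself assign reads to a grass. Without its last C, osa-miR393a_R+1_1 is letter for letter the ata 5p entry. The CC end thus does not assign reads to Arabidopsis either.

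The 3p strands differ between the name groups. The ata 3p entry and aly-miR393b-3p are identical at 13 of 21 positions at the best ungapped placement, while aly-miR393b-3p and aly-miR393a-3p differ by 1 substitution, G8T (from the first to the second). Laid against the ata 5p strand with 2-base overhangs on both 3′ ends, the ata 3p strand pairs at 16 of 19 facing positions by Watson-Crick rules and at 1 by a G-T pair. For aly-miR393b-3p the numbers are 15 and 2, and for aly-miR393a-3p 14 and 2. Both kinds of 3p strand can thus pair with the same 5p letters, and the 5p letters alone do not tell their origins apart.

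The table gives wheat positions on scaffolds of the TGACv1 assembly for 17 of the 20 members. Both ata strands lie in 1 precursor on the minus strand of scaffold 641641 (labelled U), from 62224 to 62320, the 5p entry on its 5′ arm and the 3p entry on its 3′ arm. osa-miR393a_R+1_1 is placed on the plus strand of scaffold 271483 of 3DS, from 14008 to 14135. For 7 of the 17 the listed span is under 60 bases, down to 24 bases for osa-miR393a_L-2R+1 on scaffold 328646 of 4BS, from 90672 to 90695. The other osa entries have listed spans of 89 to 128 bases, each on a 5′ arm. Of the 7 aly 3p members with a position, 6 are placed on a 5′ arm, and aly-miR393b-3p, the second most abundant member, has no wheat position. Gene annotation around these positions was not used here.

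The pools differ in ways the groups do not explain, and this touches each result below. The steps between values imply 330652 to 1211765 reads per pool. A scaling factor was taken from 241 grass-named sequences outside miR393 that were above 0 in all 6 pools. For pools 1 and 2 it was 0.714 and 1.17 in control, 0.634 and 1.19 with DTT, and 3.99 and 0.507 with DTT+TUDCA. This factor is a median over sequences and not a sum. By it, the typical grass-named sequence was low in control pool 1, DTT pool 1 and DTT+TUDCA pool 2 and high in DTT+TUDCA pool 1. As a sum, grass-named sequences outside miR393 held 65.9% and 66.9% of all normalized reads in control. With DTT they held 64.8% and 67.3%, and with DTT+TUDCA 74.2% and 61.0%. Over 103 sequences outside miR393 registered exactly from Arabidopsis (ath and aly names) and without a wheat position, the share of all normalized reads was 4.23% and 3.62% in control, 5.03% and 5.41% with DTT, and 2.13% and 5.81% with DTT+TUDCA. This set does not hold all reads with Arabidopsis names. aly-miR158a-3p, with a mean of 35261 normalized reads over the pools, lies outside it.

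The whole family was a minor part of the leaf miRNAs. Summed over members it was at 2811 and 2734 normalized reads in control, 1825 and 3102 with DTT, and 6323 and 2182 with DTT+TUDCA. These are 0.285% to 0.930% of all normalized reads, and rank the family 21 to 30 among 329 family numbers in a pool. The log2 ratio of the summed pools was -0.17 for DTT against control, 0.79 for DTT+TUDCA against DTT and 0.62 for DTT+TUDCA against control. Without DTT+TUDCA pool 1 the last pair turned to -0.18 and -0.35, and after the grass scaling they were 0.10 and -0.09. For the 9 grass-named members alone the 3 ratios were -0.19, 0.99 and 0.80, and the last pair turned to -0.85 and -1.04 without DTT+TUDCA pool 1 and to -0.11 and -0.38 after grass scaling. For DTT against control the grass-named ratio was -0.99 without DTT pool 2 and 0.33 without DTT pool 1. The pools of the 3 groups overlapped, so the order of the groups was not set apart from the spread between pools. In whole leaves, fewer cells of a type and less RNA per cell cannot be told apart.

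**Figure D1:**
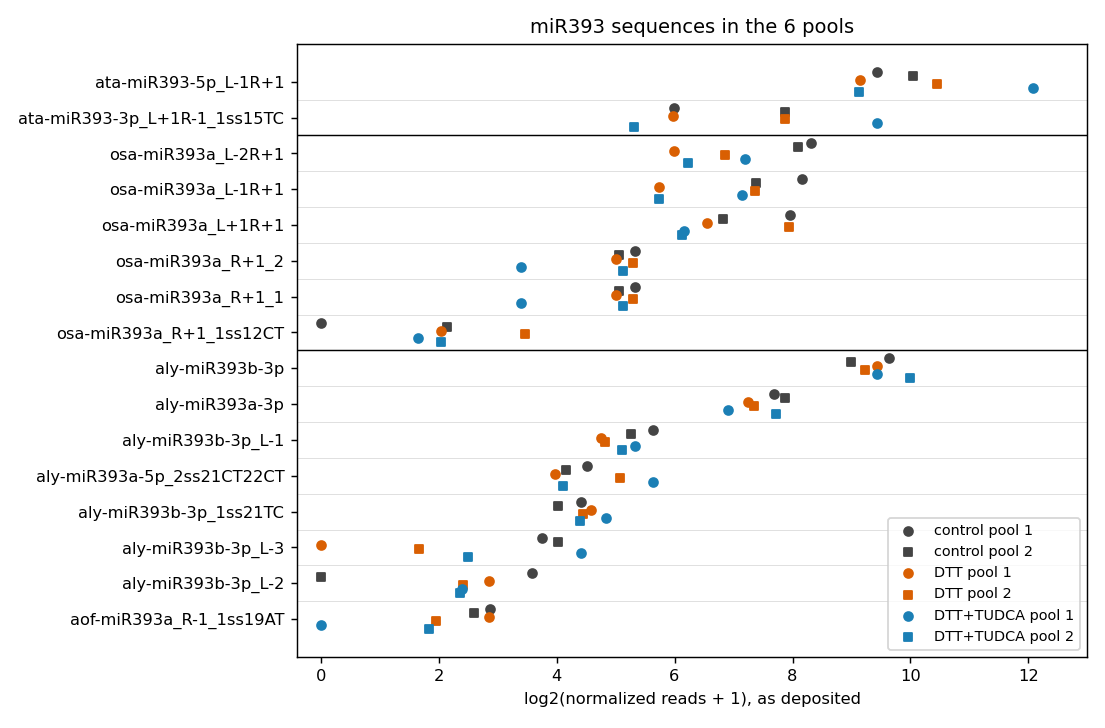
Each miR393 sequence with at least 20 normalized reads over the 6 pools (16 of 20), with log2(normalized reads + 1) on the horizontal axis and 1 point per pool, in blocks of ata, osa and other names. The ata pair is highest in DTT+TUDCA pool 1, and the points of aly-miR393b-3p lie closer together.

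The most abundant member was the 21-nt guide strand ata-miR393-5p_L-1R+1. It was at 687 and 1050 normalized reads in control, 564 and 1401 with DTT, and 4303 and 561 with DTT+TUDCA. These values stand for 438 to 4039 implied reads. DTT+TUDCA pool 1 held the highest and DTT+TUDCA pool 2 the lowest value, so the 2 pools of 1 treatment bracket all others. This entry made up 24.5% of the family in control pool 1 and 68.1% in DTT+TUDCA pool 1.

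Its partner strand ata-miR393-3p_L+1R-1_1ss15TC was high and low in the same pools, at a lower level. It was at 62.8 and 234 normalized reads in control, 61.6 and 233 with DTT, and 688 and 38.7 with DTT+TUDCA. Within a pool the guide strand exceeded the partner 10.95-fold and 4.49-fold in control, 9.15-fold and 6.01-fold with DTT, and 6.25-fold and 14.5-fold with DTT+TUDCA. This ratio does not depend on scaling. It was lower in the 3 pools with higher grass factors than in the other 3, in every treatment.

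The Arabidopsis-type partner strand aly-miR393b-3p, registered exactly in this form, had a narrower range. It was at 798 and 509 normalized reads in control, 691 and 598 with DTT, and 690 and 1014 with DTT+TUDCA. Against the ata 3p strand it was 12.7-fold and 2.17-fold more abundant in control, 11.2-fold and 2.56-fold with DTT, and 1.00-fold and 26.2-fold with DTT+TUDCA. The strand that matches the wheat precursor was thus the rarer of the pair in 5 pools and level with it in DTT+TUDCA pool 1. The 103 Arabidopsis-registered sequences without a wheat position gave a further measure. Against their sum, aly-miR393b-3p came to 2.86% and 2.51%, 2.15% and 2.04%, and 4.76% and 2.79% in the same order of pools. That sum leaves out Arabidopsis names with a wheat position, whose reads would lower these shares. The part of those sequences in its level was not tested.

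Its 1-base variant aly-miR393a-3p was at 206 and 232 normalized reads in control, 152 and 163 with DTT, and 119 and 211 with DTT+TUDCA. Both DTT pools lay below both control pools, with a log2 ratio of -0.48 on the summed pools. That difference is under the 2-fold limit, and it was -0.37 with overlapping pools after grass scaling. The ratio of aly-miR393b-3p to this variant ran from 2.19 in control pool 2 to 5.78 in DTT+TUDCA pool 1.

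The 5p share of the family's normalized reads varied from pool to pool. It was 58.6% and 61.8% in control, 47.2% and 66.1% with DTT, and 74.8% and 39.1% with DTT+TUDCA. The pools of DTT+TUDCA held both the highest and the lowest share. The summed 5p forms outnumbered the 3p forms in 4 of the 6 pools.

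**Figure D2:**
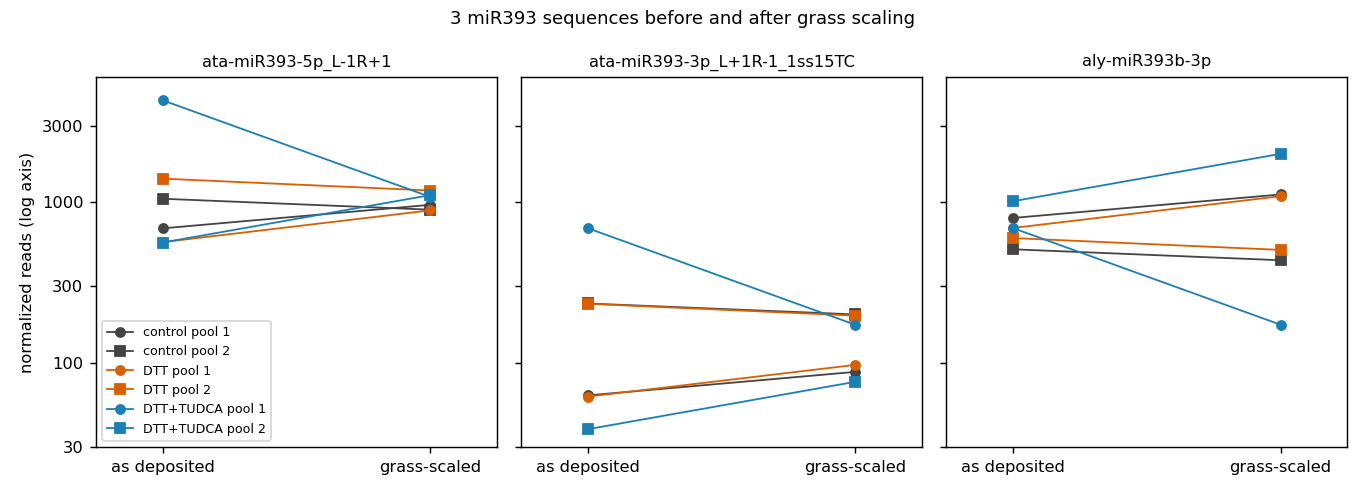
Normalized reads on a log axis for 3 miR393 sequences in each of the 6 pools, as deposited and after division by the grass factor of the pool. After scaling, the 6 values of the ata 5p strand draw together to 890 to 1182, and those of the ata 3p strand run from 76.3 to 200. Those of aly-miR393b-3p spread to 173 to 1999.

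The first comparison, DTT with control, concerns the reducing agent by itself. The ata pair and aly-miR393b-3p had log2 ratios near 0 with overlapping pools, and several 5′-shortened forms were lower. The ata 5p strand had a log2 ratio of 0.18 and the ata 3p strand of -0.01 on the summed pools, and aly-miR393b-3p of -0.02. Without DTT pool 2 the ata 5p strand was at -0.62, and without DTT pool 1 at 0.69. The ata 3p strand was at -1.26 without DTT pool 2, 0.65 without DTT pool 1, -0.67 without control pool 1 and 1.23 without control pool 2. After grass scaling the 5p strand was at 963 and 898 normalized reads in control and 890 and 1182 with DTT, a log2 ratio of 0.15.

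The lower forms were 20-nt and 21-nt reads that lack the first bases of the 5p strand. osa-miR393a_L-2R+1, without the first 2 bases, was at 317 and 272 normalized reads in control, 62.7 and 114 with DTT, and 146 and 73.7 with DTT+TUDCA. It was 3.31-fold lower with DTT, with pools that did not overlap, and its log2 ratio ran from -2.22 to -1.36 when each pool was left out in turn. osa-miR393a_L-1R+1, without the first base, was at 286 and 166 in control, 52.2 and 163 with DTT, and 141 and 52.6 with DTT+TUDCA. DTT pool 2 reached nearly the lower control pool, so that its fold of 2.09 lower was a log2 ratio of -1.06 that became -0.47 without DTT pool 1, -0.62 without control pool 1 and -2.10 without DTT pool 2.

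The 18-nt aly-miR393b-3p_L-3, which lacks the first 3 bases of the Arabidopsis-type 3p strand, was at 12.6 and 15.3 normalized reads in control, listed at 0 and at 2.16 with DTT, and at 20.2 and 4.64 with DTT+TUDCA. These are 8 and 9, 0 and 3, and 19 and 9 implied reads, so the lower value with DTT rests on few reads. It reached the floor of 20 normalized reads only through the control pools. Its log2 ratio of -3.19, in which the listed 0 and the added 1 weigh heavily, was -2.44 without DTT pool 1. aly-miR393b-3p_L-1, at 48.7 and 37.3 in control and 26.1 and 27.4 with DTT, also lay lower in both DTT pools, at a log2 ratio of -0.68, but its pools overlapped after grass scaling. The form between them, aly-miR393b-3p_L-2, was at 10.99 and a listed 0 in control and 6.27 and 4.32 with DTT, a log2 ratio of -0.05 with overlapping pools.

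In all, 15 of the 20 members had at least 20 normalized reads over the 4 pools and were compared. Of these, 0 were at least 2-fold higher and 3 lower, where 16.8% and 10.2% of the 958 sequences of the table were higher and lower. The pools did not overlap for the 3 lower members. Over all sequences they did not overlap for 78 of the 98 lower ones, which are 8.14% of the 958. The median log2 ratio was -0.05 for the members and 0.08 for all sequences. After grass scaling 0 members were higher and 3 lower, against 17.8% and 7.93%. These counts rest on 15 sequences, several of which are end variants of each other, and with 1 sample per group they were not tested.

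The shortened forms were then set against the full forms within each pool, a comparison chosen after the values were seen, which needs no scaling. Of the 4 rice-named 5p forms that share their 3′ end, those without the first 1 or 2 bases made up 67.8% and 75.2% in control, 48.0% and 49.6% with DTT, and 78.2% and 55.1% with DTT+TUDCA. Both DTT pools lay below both control pools, and DTT+TUDCA was split, with pool 1 above control and pool 2 between. The form with 1 extra 5′ base, osa-miR393a_L+1R+1, made up 27.7% and 19.2% in control, 38.9% and 43.6% with DTT, and 19.2% and 30.1% with DTT+TUDCA. The abundant ata-miR393-5p_L-1R+1, which has the full 5′ end but ends 1 base earlier, is not in this set. Counting it as a full form would lower the shortened share in every pool. In DTT+TUDCA pool 1 it was at 4303 normalized reads beside 367 for the 4 forms together. The place of that pool above control thus holds only within the 4 forms.

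In the 3p strand both DTT pools also lay below both control pools. Forms of aly-miR393b-3p lacking 1 to 3 bases at the 5′ end made up 8.30% and 9.37% in control, 4.48% and 5.35% with DTT, and 8.48% and 4.0% with DTT+TUDCA. In osa-miR167d-5p, a regulator of auxin response factors picked after its values were seen, forms lacking 1 to 4 bases made up 10.7% and 12.4%, 5.95% and 5.94%, and 13.2% and 5.23%. Of all 54 sets outside miR393 that hold a sequence with a mean of at least 100 normalized reads and forms of it lacking 1 to 4 bases at the 5′ end, the shortened share was lower in both DTT pools than in both control pools in 30 (55.6%), higher in 3 and overlapping in 21. Some of these sets share a sequence. This count was added after the values of miR393 were seen. Over all sequences outside miR393, those of 18 to 20 nt made up 12.4% and 14.4% in control, 9.97% and 10.4% with DTT, and 10.7% and 10.4% with DTT+TUDCA. DTT+TUDCA pool 1 lay within or above the control values in the 4 rice-named miR393 5p forms, the miR393 3p forms and the miR167d forms. It lay below them in this last measure. DTT+TUDCA pool 2 lay below the DTT pools in the 3p and miR167d sets and above them in the 5p set. The part of RNA quality in these shares was not tested.

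**Figure D3:**
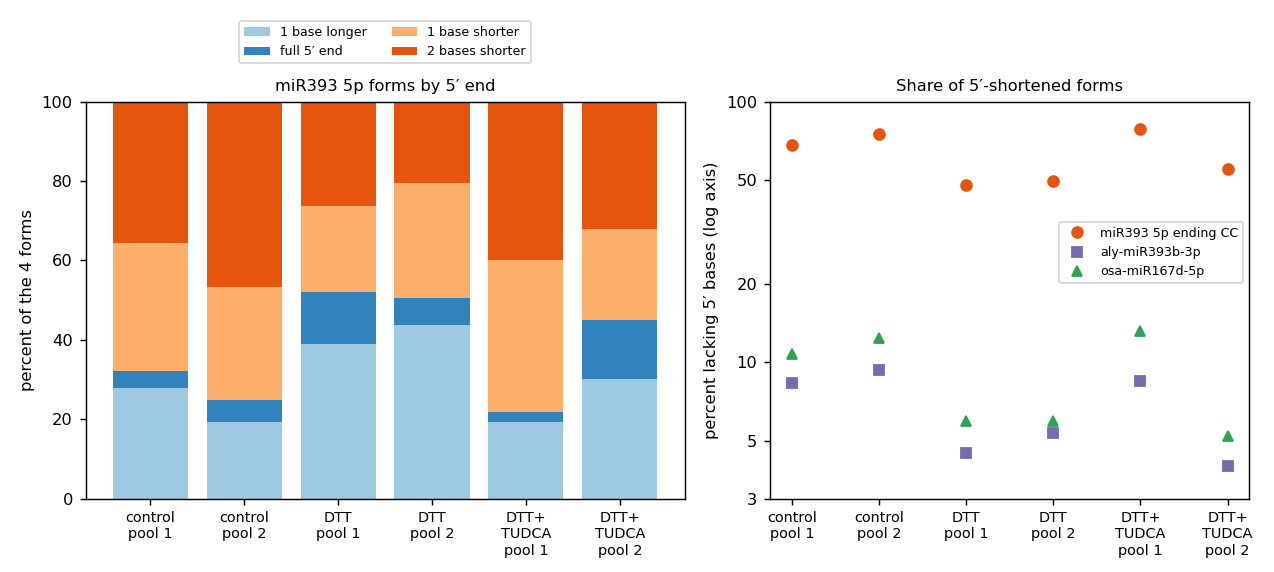
Left, the 4 rice-named miR393 5p forms that share a 3′ end, as percent of their sum in each pool, by 5′ end. Right, the percent of forms lacking 5′ bases in each pool on a log axis for these 5p forms, for aly-miR393b-3p and for osa-miR167d-5p; in each of the 3 sets both DTT pools lie below both control pools.

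The full 22-nt form, osa-miR393a_R+1_1, was at 39.2 and 32.2 normalized reads in control, 31.3 and 38.2 with DTT, and 9.59 and 34.0 with DTT+TUDCA. Length matters in this family because 22-nt miRNAs are known in Arabidopsis to start secondary siRNAs on the receptor transcripts. DTT+TUDCA pool 1 was the low pool and the other 5 were alike. The table lists the same 6 values for osa-miR393a_R+1_2, which ends in T, so the reads of these entries cannot be told apart. All 22-nt members together held 3.68% and 3.10% of the family in control, 4.52% and 4.03% with DTT, and 1.10% and 4.30% with DTT+TUDCA. Both entries with the same values are counted here, so these shares are too high if the entries hold the same reads. In the same order of pools, 21-nt members held 73.5% and 80.9%, 85.1% and 83.3%, and 94.4% and 87.2%.

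The second comparison, DTT+TUDCA with DTT, concerns the effect of adding the chaperone. On the sums the ata 5p and 3p strands were 2.47-fold and 2.46-fold higher with both agents, and only pool 1 of DTT+TUDCA lay above the DTT pools. Without DTT+TUDCA pool 1 their log2 ratios of 1.31 and 1.30 turned to -0.81 and -1.92, and without pool 2 they were 2.13 and 2.22. Without DTT pool 1 they were 0.80 and 0.64, and without DTT pool 2 they were 2.11 and 2.55. After grass scaling the ata 5p strand was at 1079 and 1107 normalized reads with DTT+TUDCA against 890 and 1182 with DTT, and its log2 ratio was 0.08. The ata 3p strand was then at 172.5 and 76.3 against 97.2 and 197, a log2 ratio of -0.24.

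Of the other members past the limit, osa-miR393a_L+1R+1 was lower, at 246 and 112 normalized reads in control, 93.0 and 245 with DTT, and 70.3 and 69.1 with DTT+TUDCA. As deposited, its 2 DTT+TUDCA pools were nearly equal and lay below the other 4 pools, whereas after grass scaling they were at 17.6 and 136 and the higher lay above control pool 2. The fold was 2.41 lower, and the log2 ratio of -1.27 became -1.19 after grass scaling and -0.41 without DTT pool 2. aly-miR393b-3p_L-3, given above with its values, was higher from 3 implied reads in the DTT pools and reached the floor only through the DTT+TUDCA pools. Its log2 ratio of 3.03, with the same limit, was 1.70 without DTT+TUDCA pool 1 and 2.28 without DTT pool 1.

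In this comparison 13 members were measured, of which 3 were at least 2-fold higher and 1 lower. Of the 1099 sequences measured, 40.2% were higher and 3.46% lower, with a median log2 ratio of 0.72 against 0.31 for the members. Among grass-named sequences outside miR393, 226 of 340 were higher, with a median log2 ratio of 1.42, beside 1.31 and 1.30 for the ata pair. Pools did not overlap for 1 of the 3 higher members and for the lower one, against 7.55% and 1.82% of all sequences. After grass scaling 1 member was higher and 1 lower, against 7.64% and 5.64%, and the medians were -0.19 for the members and 0.01 for all.

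The last comparison sets both agents against control. The 3 most abundant rice-named 5p forms were lower with DTT+TUDCA, each in both pools. osa-miR393a_L-2R+1 was 2.67-fold lower, osa-miR393a_L+1R+1 2.56-fold and osa-miR393a_L-1R+1 2.33-fold, with pools that did not overlap for any of the 3 as deposited. After grass scaling the pools of osa-miR393a_L+1R+1 overlapped and those of the other two did not. Without control pool 1 the last pair had log2 ratios of -0.68 and -0.78, in place of -1.36 and -1.22. osa-miR393a_L-1R+1 was at -0.68 without DTT+TUDCA pool 2 and at -2.09 without pool 1. osa-miR393a_L-2R+1 kept a log2 ratio of -1.99 to -1.01 without each pool in turn.

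Summed over the 7 osa entries, the values were 931 and 618 normalized reads in control, 276 and 615 with DTT, and 378 and 273 with DTT+TUDCA. This was 2.38-fold lower with DTT+TUDCA than in control and 1.74-fold lower with DTT, without overlap in either case. After grass scaling the osa sums were 1304 and 528, 435 and 519, and 94.8 and 538, so that DTT+TUDCA and control then overlapped. After scaling, control pool 1 was the highest and DTT+TUDCA pool 1 the lowest of the 6. As deposited, the sum of the 11 members with other names was at 1130 and 832 in control, 923 and 853 with DTT, and 953 and 1309 with DTT+TUDCA. After grass scaling it was at 1583 and 711, 1456 and 720, and 239 and 2582.

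The ata 5p and 3p strands were 2.80-fold and 2.44-fold higher in DTT+TUDCA than in control as deposited, with overlapping pools. Their log2 ratios of 1.48 and 1.29 turned to -0.63 and -1.93 without DTT+TUDCA pool 1, and were 2.31 and 2.21 without pool 2. The ata 3p strand was also at 2.52 without control pool 2 and at 0.63 without control pool 1. After grass scaling the ratios were 0.23, without overlap of pools, and -0.21, with overlap. In all, 13 members were measured, of which 2 were higher and 3 lower, against 41.4% and 6.05% of 1107 sequences. Of these, 0 of the 2 higher and 3 of the 3 lower members had pools without overlap. Over all sequences, 151 of the 458 higher and 58 of the 67 lower ones had pools without overlap, or 13.6% and 5.24% of the 1107. After grass scaling 0 were higher and 4 lower, against 20% and 11.2%, the fourth being aly-miR393b-3p_L-3. The median log2 ratio was -0.23 for the members and 0.66 for all sequences as deposited, and -0.24 and 0.23 after scaling.

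**Figure D4:**
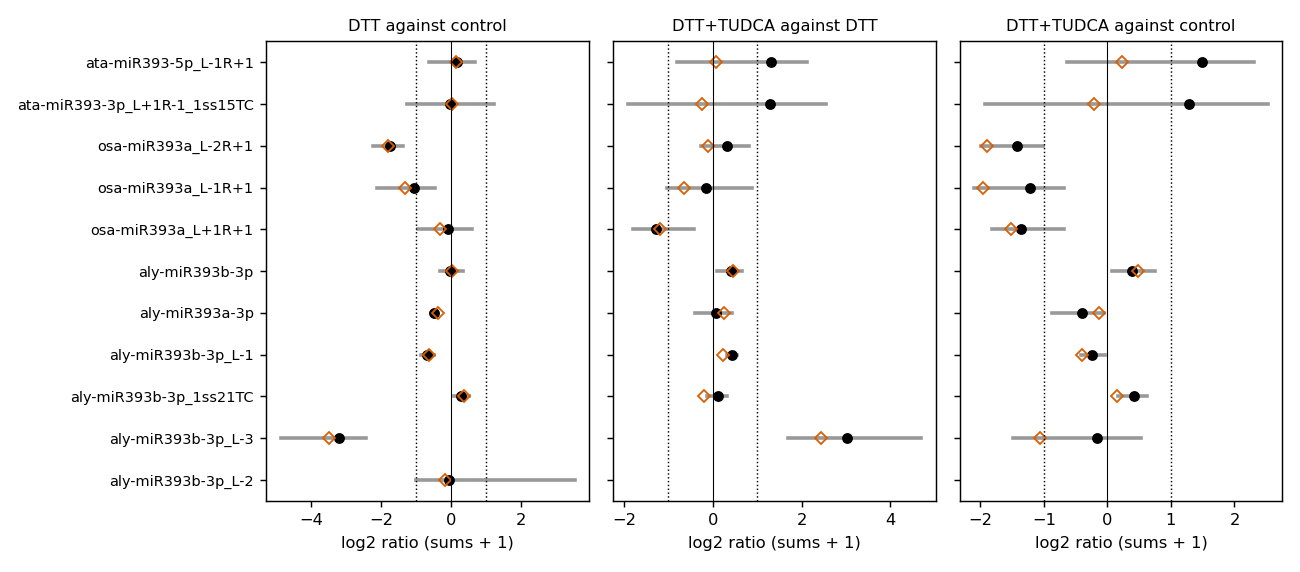
Log2 ratios of the summed pools (plus 1) for the 11 miR393 members named by the rule, in the 3 comparisons, where they were measured. Black points are as deposited, grey lines span the values with each pool left out in turn, open diamonds are after grass scaling and dotted lines mark 2-fold; the lines of the ata pair cross 0 in each comparison.

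The remaining members were low. aly-miR393b-3p_1ss21TC stayed between 15.3 and 27.7 normalized reads in the 6 pools. aly-miR393a-5p_2ss21CT22CT, whose last bases are both T, was at 22.0 and 17.0 in control, 14.6 and 32.8 with DTT, and 48.5 and 16.2 with DTT+TUDCA. It was highest in DTT+TUDCA pool 1 and next in DTT pool 2, as was the ata 5p strand. aly-miR393b-3p_L-2 ran from a listed 0 to 10.99. The 4 members with under 20 normalized reads over all pools, osa-miR393a_R+1_1ss1TA, aly-miR393b-3p_R-3, aly-miR393a-3p_2ss8TG21TG and aly-miR393a-5p_1ss16TC, reached at most 6.28, and osa-miR393a_R+1_1ss12CT and aof-miR393a_R-1_1ss19AT at most 10.1 and 6.28. Values worth 1 read are nearly absent from the table, so a listed 0 need not mean that no read was present. The rule behind this is not given, so no upper limit was set for a listed 0.

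Other miRNAs of the auxin pathway were taken by family number. miR160 and miR167 repress auxin response factors, and miR390 starts the TAS3 siRNAs that repress another group of them. Their summed levels per pool were 9858 to 14086 normalized reads for miR160, 31028 to 54968 for miR167 and 3212 to 6818 for miR390, all above miR393 in each pool except miR390 in DTT+TUDCA pool 1, at 3379 against 6323. For DTT against control, 7 of their 45 measured sequences were higher and 3 lower, beside 16.8% and 10.2% of all sequences. For DTT+TUDCA against DTT, 13 of 46 were higher and 1 lower, beside 40.2% and 3.46%. For DTT+TUDCA against control, 12 of 45 were higher and 2 lower, beside 41.4% and 6.05%. After grass scaling the numbers higher and lower were 7 and 2, 3 and 2, and 10 and 5 in the same order. Beside them stood 17.8% and 7.93%, 7.64% and 5.64%, and 20% and 11.2% of all sequences. Their most abundant entry ata-miR167a-5p was at 20029 and 18306 in control, 34106 and 18315 with DTT, and 20386 and 40547 with DTT+TUDCA. It was high in DTT pool 1 and DTT+TUDCA pool 2, where the ata 5p strand of miR393 was low. Among other abundant entries of these families, tae-miR160, ata-miR390-5p and aly-miR167a-3p were also highest in DTT+TUDCA pool 2. In contrast, tae-miR167c-5p and osa-miR160f-5p were highest in DTT+TUDCA pool 1, at 11456 and 706, as was the ata 5p strand of miR393.

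The 5 entries outside the family whose log2(normalized reads + 1) followed the summed grass-named miR393 most closely were taken from 533 entries with a mean of at least 20. They were PC-5p-7289_302 (Pearson r 1.00 over the 6 pools), bdi-MIR5064-p3 (0.997), osa-MIR160f-p3_1 and osa-MIR160f-p3_2 (both 0.989, with the same values) and ata-miR164a-5p (0.989). The last was at 314 and 445 normalized reads in control, 210 and 463 with DTT, and 1469 and 162 with DTT+TUDCA. The 6 points share the makeup of each pool described above, and DTT+TUDCA pool 1 is the highest in each of these entries.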

How the data were processed

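Small RNA from 3 leaf samples, each as 2 pools, was sequenced single-end on an Illumina HiSeq after TruSeq small RNA preparation, per the labels' protocols. The values are a signal, normalized reads per sequence and pool, deposited by the authors in 1 table, per the file headers. No aligner, counter, filter or scaling rule is named here, each being not given in the sources used here. Reads were implied by dividing by the step between values; 95.1% to 97.3% of values above 0 were whole within 0.01 reads. Fractions remain, so no count test was run.

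Rows were reduced to distinct sequences. Pools of a treatment were summed, a pseudocount of 1 was added, and sequences with at least 20 normalized reads in a comparison were called at 2-fold. The fold understates changes of low sequences. Grass scaling divides each pool by its median ratio to the geometric mean over grass-named sequences outside miR393. Alternatives were 3 scalings, a pseudocount of 5, other floors, a 1.5-fold limit, merged identical values, and each pool left out with the other counted 2 times. Named members are the 5 of highest mean, the 3p members with at least 20 normalized reads and those past 2-fold; others are given briefly. Members and lists were chosen with earlier results of these data known. The 2-fold calls, the scaling factors and the step between values were tested on simulated data (Python 3.11.15, pandas 2.3.3, numpy 2.4.6). In the test of the calls, pools of a group differed only by depth and read sampling, unlike the pools here. The other steps were not tested in this way.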

Additional observations from a re-analysis of the deposited data

How the results depend on the processing

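No paired analysis was possible because each treatment has 1 sample and the pools carry no pairing in the labels. With 2 pools per treatment, leaving out 1 gives the value of the other, so these values show the range and are no test of stability. The count of members past 2-fold was 7 in place of 3 without a floor (DTT against control), 2 in place of 4 with median-of-ratios over all or over grass-named sequences (DTT+TUDCA against DTT), and 8 in place of 5 at a 1.5-fold limit (DTT+TUDCA against control). Leaving out each pool in turn gave 2 to 7 for DTT+TUDCA against DTT (2 without DTT pool 1, 7 without DTT+TUDCA pool 2) and 2 to 7 for DTT+TUDCA against control (2 without control pool 1). Apart from grass scaling, treated above, the share of all sequences called at these settings is not given. These counts thus cannot be set against the rest of the sequences. The summed grass-named ratio of 0.80 for DTT+TUDCA against control was -1.25 with osa names alone, an alternative chosen after seeing the data, as was the next. Without the form that shares its values, the shortened share was 71.0% and 79.6% in control, 55.3% and 53.2% with DTT, and 80.3% and 64.6% with DTT+TUDCA. The ata 3p strand turned to -0.24 (against DTT) and -0.21 (against control) with grass scaling. With each pool left out it ran from -1.92 to 2.55 and from -1.93 to 2.52, and the ata 5p strand from -0.81 to 2.13 and from -0.63 to 2.31. The cause of these changes was not tested. Ratios of members under about 20 implied reads are limited by depth.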
